A study of Homo sapiens with 6 samples.

Results

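Intermediate filaments are the toughest of the cytoskeletal fibres, and which of them a cell builds is one of the oldest ways to tell its type. Keratins are the filaments of epithelial cells and assemble as obligate pairs of a type I and a type II protein, such as KRT18 with KRT8, whereas vimentin (VIM), a type III protein, assembles with itself and is the filament of mesenchymal cells. Breast carcinoma cells that have undergone epithelial to mesenchymal transition (EMT) typically carry vimentin while keeping some keratin.

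The 9 genes described here are VIM, the type II keratins KRT7, KRT8, KRT80 and KRT81, and the type I keratins KRT15, KRT17, KRT18 and KRT19, of 74852 genes deposited. Each was found by its symbol, and where a symbol stood on more than 1 row the row with the highest mean was kept. All 9 passed the filter on low values, a mean of at least 10 normalized counts, as did 18717 genes in all. The genes had between 19 and 170648 reads in a library.

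The cells were MDA-MB-231, a human triple-negative breast cancer (TNBC) cell line with a mesenchymal phenotype. Both groups were transfected in 2 rounds with Lipofectamine, 3 libraries with non-targeting control siRNAs (si-CTRL) and 3 with siRNAs against the mitotic kinase NEK2 (si-NEK2). Cells were harvested 24 h after the second round by the labels. Another harvest time stands in the methods. The sources used here do not say if the libraries of the 2 groups were made together. The labels do not say whether the replicates were separate cultures, so that p-values measure the spread between these libraries, which may be technical, and in bulk RNA a different number of cells with a transcript and a different amount per cell cannot be told apart.

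Depth ranged from 52625492 to 87454509 reads per library. The silenced gene checked the labels, since NEK2 fell from 3438 ± 229 to 344.9 ± 54.4 normalized counts (SD, n = 3), a log2 fold change of -3.32 (SE 0.12, limma adjusted p = 1.86e-06). The first principal component, with 61.6% of the variance, separated the groups, and the second, with 16.1%, parted si-CTRL replicate 1 from replicates 2 and 3 of its group. On the second component si-NEK2 replicate 3 (17.1) also stood apart from si-NEK2 replicates 1 and 2 (-4.02 and -4.26). The label was checked against cell type markers, whose part in the results below was not tested. CDH1 had at most 6 reads in any library, EPCAM at most 14, ESR1 at most 16 and PGR at most 2, whereas the summed level of 5 mesenchymal markers was between 175171 and 219226 normalized counts in si-CTRL and between 194094 and 215026 in si-NEK2. The highest of these 5 had a mean of 163654 and the lowest 280, so that the sum is mostly that of 1 gene. ERBB2, the HER2 receptor gene (a row shared with a microRNA gene) was at 2822 ± 544 in si-CTRL and 4020 ± 80.8 in si-NEK2 (SD, n = 3; log2 fold change 0.53, adjusted p = 0.00744, under the fold threshold). Of 6 epithelial markers 1 was at 0 in all libraries and 1 passed the filter and fell, so that their summed level lay between 258 and 307 in si-CTRL and between 142 and 152 in si-NEK2. Of 5 luminal and receptor markers 3 were tested and 1 rose, and of 3 basal markers 1 was tested and rose. Of the 5 mesenchymal markers, all tested, 1 rose and 2 fell, and of 4 fibroblast markers, all tested, 2 rose. The fibroblast markers were also abundant, with sums between 150378 and 185551 normalized counts in si-CTRL and between 138777 and 158367 in si-NEK2. The highest of them had a mean of 150878 and the lowest 56.4. The 4 leukocyte markers summed to at most 34.4 and the 3 endothelial markers to at most 76.2 normalized counts in a library.

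All 9 proteins share a central helical rod, and their transcripts are alike to different degrees. Over the whole coding sequence of GENCODE v29 the closest pair of members was KRT7 and KRT8, identical at 76.1% of 1350 aligned bases, and KRT8 and KRT18 were identical at 64.6% of 1202.

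This likeness bears on how far each row can be taken as 1 gene. Over all stretches of 100 bases, the read length given in the methods, none of KRT15, KRT19 or KRT80 was shared with another transcript on either strand, and 0.353% of those of KRT17. KRT81 shared 29.4% of its stretches with KRT86, its close copy (94.2% identical over 1454 aligned coding bases), and the rows of both cover the same 34716 bases. These are the whole KRT81 row, whereas the KRT81 gene of GENCODE v29 spans 5622 bases. Whether the row holds reads from outside the gene was not tested. VIM shared 30.6% with its antisense RNA VIM-AS1, KRT18 shared 18.4% with a transcript of KRT8 that runs into it from the other strand, and KRT7 shared 7.67% with its antisense RNA. The library kit keeps the strand, but how strand was used in counting is not given in the sources used here, so that these reads cannot be told apart. KRT8 shared 7.25% with its pseudogenes KRT8P3, KRT8P33, KRT8P45 and KRT8P10. None of these is named among the 8 keratin pseudogene rows, so that their reads are not known. Of those 8 rows 4 had any read, and none had more than 8 in a library.

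The KRT19 row needs its own caution. It spans 263095 bases (chr17:39679870-39942964, hg19), whereas the KRT19 gene of GENCODE v29 spans 4692 bases. The distance from KRT19 to the far end of JUP, the gene for plakoglobin, a plaque protein of desmosomes, is 263315 bases in GRCh38, which differs from the row by 220 bases, and no row of the table carries the symbol JUP. The row also covers the whole KRT17 row, and it overlaps 16 rows in all, 9 of them with a symbol. Among these is EIF1, with a mean of 49217 normalized counts against 1802 for the KRT19 row. KRT19 and JUP reads cannot be told apart in it, and its value is given below as that of the KRT19 row.

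Vimentin and the KRT8/KRT18 pair had the highest levels among the 9 genes. Per kb of transcript, VIM had 84188 ± 7693 normalized counts in si-CTRL and 74267 ± 2178 in si-NEK2 (SD, n = 3), followed by KRT18 with 17493 ± 619 and 17296 ± 870 and by KRT8 with 9951 ± 697 and 12870 ± 325. VIM ranked 20 among the 18717 genes tested by its mean normalized count, which is not per length. The KRT19 row came next at 1050 ± 46.8 and 1543 ± 125 per kb, then KRT80 at 327 ± 21.1 and 611 ± 50.6. The other 4 had at most 452 per kb in any library, down to KRT17 at 21.3 ± 5.07 in si-CTRL and 71.4 ± 7.91 in si-NEK2. Neighbours in this order did not overlap over the libraries of a group, except KRT15 and KRT81 in si-CTRL and, in si-NEK2, KRT15 (145 to 176 per kb) and KRT7 (108 to 166). KRT15 and KRT81 stood in the opposite order in the groups, KRT15 ahead in si-CTRL with 240 ± 50.03 against 222 ± 33.6 per kb, and KRT81 ahead in si-NEK2 with 375 ± 90.6 against 155 ± 17.9.

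**Figure D1:**
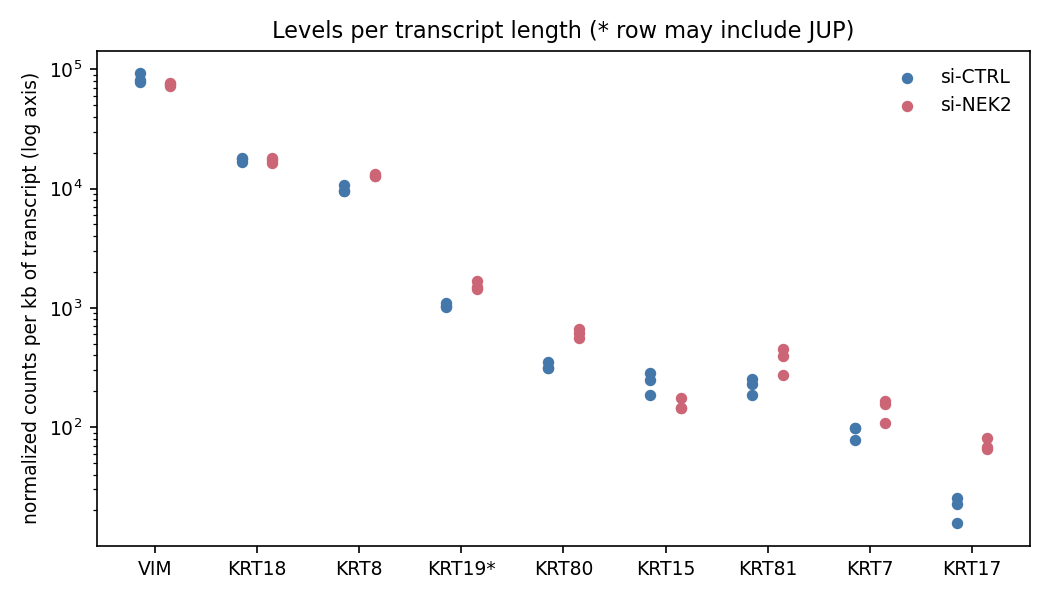
Level of each gene as normalized counts per kb of transcript on a log axis, with 1 point per library, si-CTRL in blue and si-NEK2 in red. VIM, KRT18 and KRT8 lie far above the other 6 genes, and KRT17 is lowest in both groups; the KRT19 row, marked with an asterisk, may hold JUP reads.

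Keratins were both higher and lower in si-NEK2 than in si-CTRL, with KRT15 alone called lower. Of the 9 genes 5 met both thresholds of the study, with p at or below 0.05 and a change of 1.5-fold or more. KRT17, KRT80, KRT81 and KRT7 rose and KRT15 fell. Among all genes tested 22.5% were called, 8.23% as higher and 14.3% as lower. With the limma p-value adjusted over all genes in place of the fold threshold 7 of the 9 passed, against a background of 43.1%. The libraries of the 2 groups did not overlap for 8 of the 9, with 6 higher and 2 lower in si-NEK2, where 55.0% of all genes tested did not overlap (28.2% higher and 26.9% lower). The median log2 fold change of the 9 was 0.55, which is the value of the KRT19 row, and that of all genes tested 0.01. The KRT19 row, which may hold JUP reads, is also among the 7 that passed adjusted p and the 8 without overlap.

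**Figure D2:**
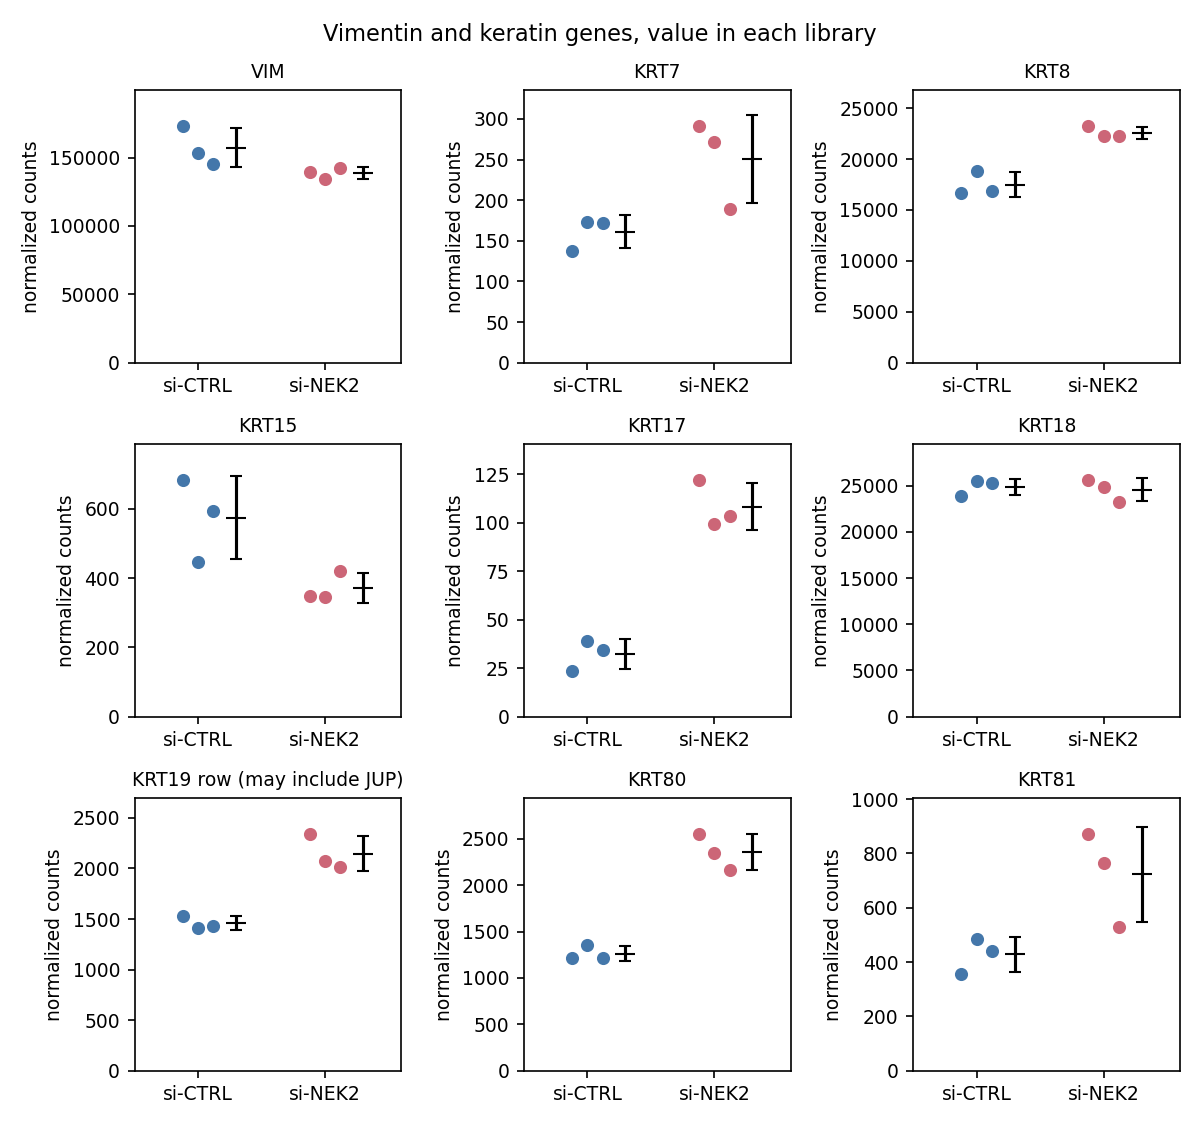
Normalized counts of each gene in each library (points, si-CTRL replicates 1 to 3 in blue and si-NEK2 replicates 1 to 3 in red, left to right), with the group mean and SD (n = 3) in black; every vertical axis starts at 0. The groups overlap only for KRT18, and VIM and KRT15 are lower in si-NEK2.

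Vimentin was the most abundant of the 9 and lower in si-NEK2 by less than the fold threshold. Its row (GSHG0003222, chr10:17270258-17279592, hg19) had 173162, 153431 and 145198 normalized counts in si-CTRL replicates 1 to 3 and 139648, 134282 and 142263 in si-NEK2 replicates 1 to 3. All si-NEK2 libraries lay below all si-CTRL libraries, with the highest si-NEK2 value close to the lowest si-CTRL value. The log2 fold change was -0.18 (SE 0.08, 95% confidence interval -0.36 to 0.00, adjusted p = 0.101), so that the interval leaves out a fall of 1.5-fold. Without si-CTRL replicate 1, where VIM was highest, it was -0.11, and with upper quartile, quantile or equal total scaling it was -0.24, -0.28 and -0.31, each of which passed adjusted p (0.0327, 0.0107 and 0.0139) but not the fold threshold. VIM-AS1, which is transcribed from the opposite strand at the start of VIM, fell from 273.7, 271.2 and 343.2 to 192.3, 198.8 and 163.2 normalized counts (log2 fold change -0.67, SE 0.14, adjusted p = 0.00476), but not past the fold threshold without si-CTRL replicate 3 (-0.56) or with quantile scaling (-0.52).

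KRT18 and KRT8, the keratin pair of simple epithelia, did not move together. KRT18 (GSHG0006680, chr12:53342655-53346694, hg19) had 23834, 25456 and 25231 normalized counts in si-CTRL and 25601, 24884 and 23195 in si-NEK2. The groups overlapped, and the 95% confidence interval of the log2 fold change of -0.02 ran from -0.16 to 0.13 (adjusted p = 0.853). Its sign depended on single libraries, at 0.00 when si-CTRL replicate 2 was left out and 0.02 when si-NEK2 replicate 3 was. KRT8 (GSHG0007499, chr12:53290971-53343650, hg19) had 16628, 18867 and 16895 in si-CTRL and 23246, 22241 and 22274 in si-NEK2. Each si-NEK2 library was above each si-CTRL library, with a log2 fold change of 0.37 (SE 0.07, adjusted p = 0.00244), a 1.29-fold difference that did not reach the fold threshold. It was between 0.22 and 0.43 under the alternatives.

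The difference between the partners could also be seen within each library, where a scaling of the library has no effect. The log2 ratio of KRT8 over KRT18, per kb, was -0.82, -0.74 and -0.88 in si-CTRL and -0.44, -0.47 and -0.36 in si-NEK2, which is higher by 0.39 with no overlap. The ratio of VIM over KRT8 was lower by 0.55, from 3.29, 2.93 and 3.01 to 2.50, 2.50 and 2.59, again with no overlap, whereas the ratio of VIM over KRT18 overlapped between the groups (2.26 ± 0.18 and 2.10 ± 0.10, SD, n = 3). In a pool of VIM and the 7 keratin rows other than KRT19, the vimentin share was 77.4%, 73.5% and 73.3% in si-CTRL and 69.5%, 69.5% and 71.6% in si-NEK2. No test was made of these ratios. Type II over type I keratins, summed per kb without the KRT19 row, went from -0.75 ± 0.08 to -0.32 ± 0.04 on the log2 scale (SD, n = 3). KRT8 and KRT18 made up 96.8% of these keratins in si-CTRL and 95.7% in si-NEK2, so that this mostly repeats their ratio.

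**Figure D3:**
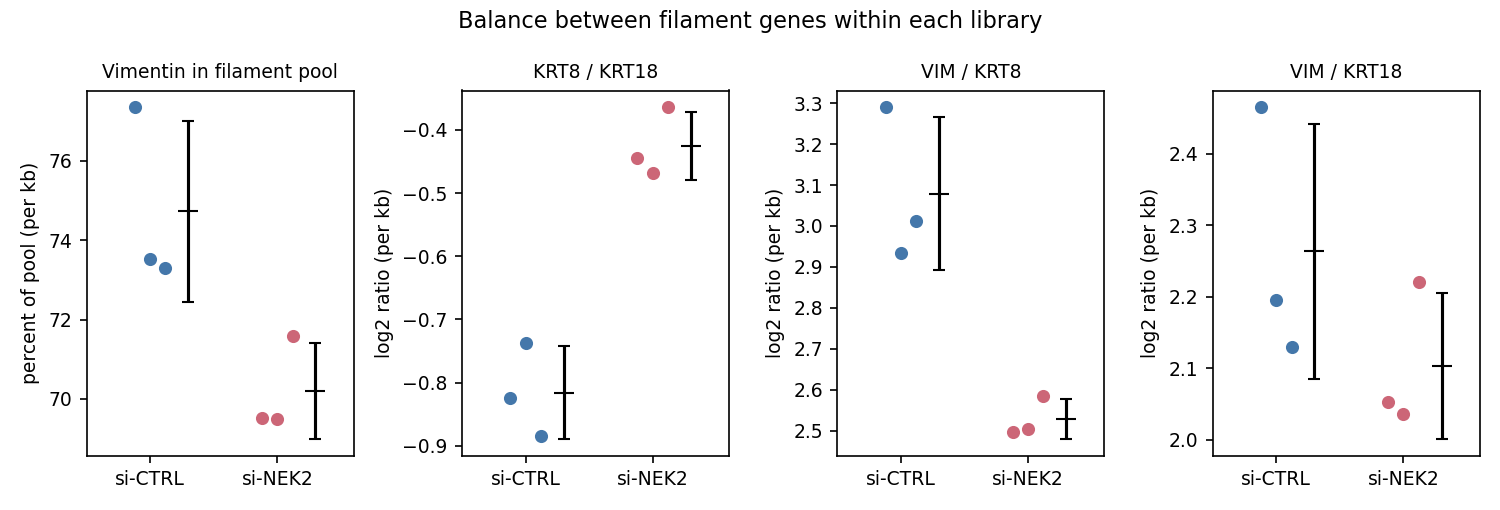
Vimentin as a percentage of the filament pool, and the log2 ratios of KRT8 over KRT18, VIM over KRT8 and VIM over KRT18, all per kb of transcript, with 1 point per library (si-CTRL blue, si-NEK2 red) and the mean and SD (n = 3) in black. The axes do not start at 0; the groups are apart in the first 3 panels and overlap in the last.

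KRT80, a type II keratin found in many epithelia, rose most clearly. It had 1220, 1357 and 1212 normalized counts in si-CTRL and 2553, 2352 and 2163 in si-NEK2 (GSHG0007474, chr12:52562780-52585784, hg19). The si-NEK2 libraries lay far above the si-CTRL libraries, with a log2 fold change of 0.90 (SE 0.09, adjusted p = 1.00e-04). Its value stayed between 0.77 and 0.96 under the alternatives. It is also one of the 3 genes that share no stretch of read length with another transcript.

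KRT17, a type I keratin of basal cells that is known to be induced in wounded and stressed epithelia, had the largest fold change of the 9 and the lowest level. Its counts were 23.7, 38.7 and 34.2 in si-CTRL and 121.9, 99.4 and 103.5 in si-NEK2 (GSHG0013399, chr17:39775692-39780882, hg19). The groups were far apart, with a log2 fold change of 1.74 (SE 0.22, adjusted p = 0.000397) at between 19 and 149 reads. Leaving out 1 library at a time gave 1.54 to 1.88.

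KRT81 and KRT7 rose less evenly. KRT81, a type II keratin of the hair cortex, had 357.5, 485.2 and 441.1 normalized counts in si-CTRL and 871.5, 766.4 and 530.3 in si-NEK2 (GSHG0007477, chr12:52667442-52702157, hg19; log2 fold change 0.74, SE 0.19, adjusted p = 0.0125). KRT7, a keratin of simple and glandular epithelia, had 137.5, 173.4 and 172.1 in si-CTRL and 291.3, 272.0 and 188.9 in si-NEK2 (GSHG0006677, chr12:52626954-52642709, hg19; log2 fold change 0.62, SE 0.18, adjusted p = 0.0246). In both, si-NEK2 replicate 3 was the lowest of its group and close to the highest si-CTRL library, and si-CTRL replicate 1 was the lowest of all. KRT7 did not reach the fold threshold when si-CTRL replicate 1 (0.51), si-NEK2 replicate 1 (0.50) or si-NEK2 replicate 2 (0.55) was left out, or with the libraries scaled to equal totals (0.49) or upper quartiles (0.55).

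The KRT19 row was at 1535, 1415 and 1431 normalized counts in si-CTRL and at 2341, 2077 and 2014 in si-NEK2. KRT19 is a small type I keratin of simple and ductal epithelia. The groups did not overlap, with a log2 fold change of 0.55 (SE 0.08, adjusted p = 0.000878) and a fold of 1.47 that fell short of the threshold. It crossed the threshold when si-CTRL replicate 1 was left out (0.59) and when si-NEK2 replicate 3 was (0.60), and the row's reads may be those of KRT19, of JUP or of both.

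KRT15, a type I keratin of basal keratinocytes and of the stem cells of the hair follicle, was the only one of the 9 that fell past both thresholds. It had 683.7, 446.5 and 594.2 normalized counts in si-CTRL and 347.8, 347.0 and 421.4 in si-NEK2 (GSHG0013393, chr17:39669998-39678665, hg19, a row shared with a microRNA gene). The lowest si-CTRL library was only slightly above the highest si-NEK2 library, with a log2 fold change of -0.61 (SE 0.16, adjusted p = 0.0146). The fold threshold was not reached when si-CTRL replicate 1 (-0.47) or 3 (-0.58) or si-NEK2 replicate 1 (-0.56) or 2 (-0.56) was left out, or with quantile scaling (-0.47). Leaving out si-NEK2 replicate 1 or 2 thus left 3 of the 9 genes called, KRT17, KRT80 and KRT81, and without si-NEK2 replicate 1 KRT81 was just past the fold threshold (0.59).

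**Figure D4:**
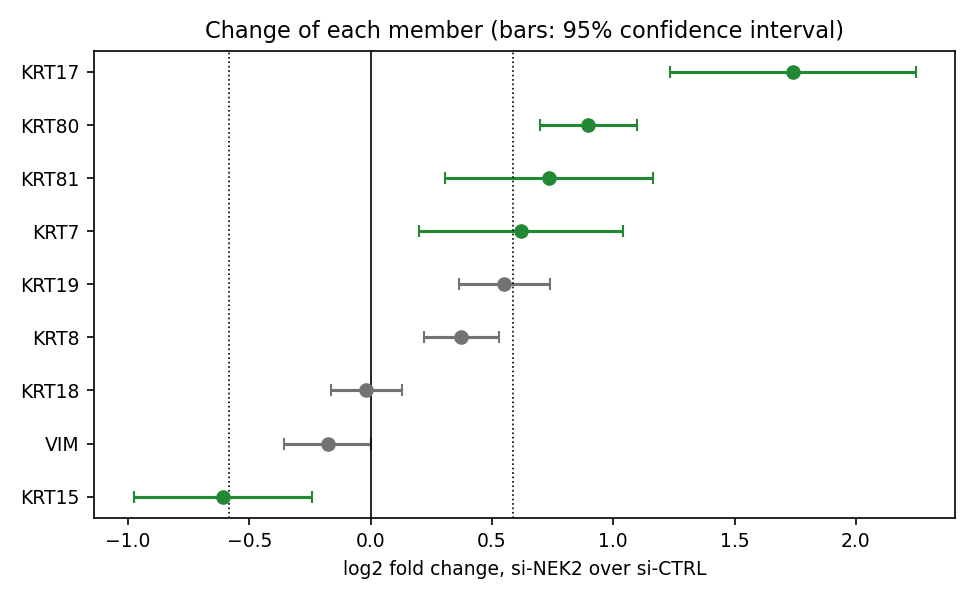
Log2 fold change of each gene in si-NEK2 over si-CTRL with its 95% confidence interval from limma, green where both thresholds were met and grey otherwise; dotted lines mark a 1.5-fold change. KRT17 is at 1.74, KRT80 at 0.90 and KRT15 at -0.61, and the intervals of VIM and KRT18 include 0.

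The pattern over the libraries was compared as the root mean square (RMS) difference of log2 values centred on each gene's mean, over 6 libraries, with 12916 genes that have a symbol and a mean of at least 50 normalized counts. The gene most like KRT81 was KRT7, with an RMS difference of 0.0763, followed by ZNF292 (0.103) and NKAPP1 (0.103). NDST1, PPARD and DPP9 were closest to VIM, with differences of 0.0133 to 0.0190, PRDX2 (0.0256) and TMEM120A (0.0312) were among the 3 closest to KRT8, and DOCK3, COX20 and SNX18 were closest to KRT18 (0.0255 to 0.0314). The smallest difference between members was that of KRT7 and KRT81 and the largest that of KRT15 and KRT17 (1.24). KRT8 was closer to the KRT19 row (0.133) than to its partner KRT18 (0.202).

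The 47 other keratin genes were mostly silent. In all libraries 21 were listed at 0, which allows up to 3 reads in a library, and 17 more were below the filter. The epidermal keratins KRT6A, KRT6B and KRT6C, near-identical copies of each other, were among those at 0. Of the 9 tested 3 rose, 4 fell and 2 did not meet the thresholds, against 22.5% called among all genes tested, with a median log2 fold change of -0.21. KRT34, a type I hair keratin, was the only one of the 4 that fell with a mean above 50 normalized counts, going from 195.0, 182.1 and 212.0 to 68.7, 55.1 and 83.2 (log2 fold change -1.51, SE 0.18, adjusted p = 0.000252). The 3 others, named after their values were seen, were KRT32 and KRT33B, which are also hair keratins, and KRT79. KRT32 went from between 40.0 and 50.4 to between 3.61 and 15.5 normalized counts and KRT33B from between 28.5 and 38.7 to between 4.52 and 11.7, while KRT79 had 14.998 to 35.2 in si-CTRL and 0.904 to 2.13 in si-NEK2, which is 1 or 2 reads. Hair keratins thus went both ways, since KRT81 and its close copy KRT86 rose.

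KRT86 had 36.2, 63.9 and 61.8 normalized counts in si-CTRL and 92.5, 87.7 and 71.5 in si-NEK2 (log2 fold change 0.66, SE 0.25, adjusted p = 0.0580), with si-CTRL replicate 1 far below the others. Without that library it was 0.40 and not called, nor was it called without si-NEK2 replicate 1 (0.59) or 2 (0.63) or with equal total scaling (0.54), and the reads it shares with KRT81 cannot be told apart. KRT14 and KRT16, the basal and stress-induced keratins most like KRT17 (85.2% and 80.9% identical in coding sequence), also rose and are named after their values were seen. KRT14 had 10.0, 13.6 and 13.3 in si-CTRL and 40.9, 45.2 and 29.9 in si-NEK2 (log2 fold change 1.57, adjusted p = 0.00237), and KRT16 had 26.2, 23.2 and 19.96 in si-CTRL and 73.7, 46.1 and 49.1 in si-NEK2 (1.22, adjusted p = 0.00479). Both lie, as KRT17 does, within the span of the KRT19 row. KRT10, the suprabasal keratin of the epidermis, was at 1048 ± 238 and 1458 ± 165 (SD, n = 3; log2 fold change 0.50, adjusted p = 0.0400), under the fold threshold. The row with the highest mean among these keratins was that of KRT222, at 5757 ± 656 and 4948 ± 184 (SD, n = 3; log2 fold change -0.21, adjusted p = 0.0777), but it also carries SMARCE1, a chromatin remodelling subunit, and the 2 genes cannot be told apart.

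Of 14 other intermediate filament genes, which include the lamins, nestin, desmin and the neurofilaments, 10 were tested, 2 rose, 1 fell and 7 did not meet the thresholds (3 of 10 called, against 22.5% of all genes tested), with a median log2 fold change of 0.07. LMNA, which encodes the nuclear lamins A and C, was the most abundant by normalized count, at 30596 ± 2018 and 32580 ± 1908 (SD, n = 3; log2 fold change 0.09, adjusted p = 0.353), and its groups overlapped. The called genes had means under 50 normalized counts and are named after their values were seen. DES, the muscle desmin, went from 7.499, 2.91 and 11.4 to 48.3, 60.6 and 49.1 (log2 fold change 2.84, adjusted p = 0.000883), PRPH, a filament of peripheral neurons, from 29.1 ± 7.13 to 52.8 ± 5.995 (0.86, adjusted p = 0.0216), and NES, the nestin of progenitor cells, from 54.5 ± 11.5 to 31.0 ± 7.95 (SD, n = 3; -0.81, adjusted p = 0.0362). NES lost its call when either si-CTRL replicate 1 (-0.64) or si-NEK2 replicate 2 (-0.60) was left out, and the change of DES starts from fewer than 12 normalized counts.

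Linkers tie filaments to desmosomes, where keratins join neighbouring cells, and to other sites in the cell. Of 22 linker genes 21 were listed, all but JUP, 17 were tested, 6 rose, 2 fell and 9 did not meet the thresholds, where 8.23% of all genes tested rose and 14.3% fell. The tested linkers had a median log2 fold change of -0.03. PKP2, a plakophilin of the desmosomal plaque, went from 639.9, 679.9 and 513.4 to 1520, 1539 and 1549 normalized counts (log2 fold change 1.34, SE 0.11, adjusted p = 4.49e-05). DSG2, the desmosomal cadherin of simple epithelia, rose from 13795 ± 1005 to 26816 ± 705 (0.96, adjusted p = 2.61e-05), PERP, a desmosomal membrane protein, from 11448 ± 1496 to 21698 ± 297 (0.93, adjusted p = 0.000103), and DSP, the desmoplakin that ties keratin to the plaque, from 986 ± 73.1 to 1743 ± 114 (SD, n = 3; 0.82, adjusted p = 0.000166). The other called genes, PKP3 and EPPK1, had log2 fold changes of 0.78 and 0.66 and are named after their values were seen, EPPK1 with an adjusted p of 0.0710. EPPK1 lost its call with DESeq2, with the replicate block, with equal total scaling, with a pseudocount of 5 and whenever any of the 6 libraries was left out (0.62 to 0.69).

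The 2 linkers that fell were SYNE3 and FAM83H. SYNE3, the nesprin that ties filaments to the nucleus, fell from 168.7, 152.1 and 177.8 to 74.5, 60.6 and 74.7 normalized counts (log2 fold change -1.24, SE 0.15, adjusted p = 0.000339), and FAM83H, which organises keratin bundles, fell from 236.5 ± 8.95 to 132.5 ± 13.2 (SD, n = 3; -0.84, adjusted p = 0.000968). DST, the dystonin that anchors filaments at hemidesmosomes and elsewhere, had the most reads of the list, at 62228 ± 12162 and 76745 ± 5189 (SD, n = 3; 0.32, adjusted p = 0.0689), and its groups overlapped.

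The 25 genes for filament kinases, chaperones and turnover were all tested, with 3 higher, 4 lower and 18 not past the thresholds and a median log2 fold change of 0.18. The 7 called are 28% of the list, near the 22.5% of all genes tested. KLHL24, a ubiquitin ligase adaptor that targets keratin, rose and went from 308.7, 426.2 and 401.2 to 917, 1036 and 953 normalized counts (log2 fold change 1.36, SE 0.13, adjusted p = 8.86e-05). Of the kinases, PRKCE fell from 448.2 ± 22.1 to 157.6 ± 23.9 (-1.51, adjusted p = 5.95e-05) and PAK2, which phosphorylates vimentin, from 8147 ± 537 to 4186 ± 84.2 (SD, n = 3; -0.96, adjusted p = 2.35e-05).

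Among the chaperones and cross-linkers, HSPB8, a small heat shock protein, rose from 1209 ± 65.3 to 2103 ± 118 (0.80, adjusted p = 0.000108), and TGM2, a transglutaminase, fell from 13914 ± 1423 to 8522 ± 301 (SD, n = 3; -0.70, adjusted p = 0.000232). HSPA8, the constitutive heat shock protein of the cytosol, had the highest count of the list, at 184479 ± 6659 and 123645 ± 4611 (SD, n = 3). Its log2 fold change of -0.58 (adjusted p = 0.000215) lay just under the fold threshold and passed it under 8 of 17 alternatives, among them edgeR (-0.59) and DESeq2 (-0.59). The fourth gene that fell was SQSTM1 (-0.60, adjusted p = 0.000406), an autophagy receptor found in keratin inclusions, named after its values were seen, and it was under the fold threshold without si-CTRL replicate 1 (-0.53).

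Of 23 transcription regulators with a known part in keratin or vimentin expression 20 were tested, 2 rose, 7 fell and 11 did not meet the thresholds, beside 8.23% of all genes tested that rose and 14.3% that fell. The median log2 fold change of the list was -0.41. ELF3, an epithelial factor, went from 58.7, 90.1 and 41.8 to 180.0, 162.7 and 141.9 normalized counts (1.39, SE 0.26, adjusted p = 0.00281), and KLF5, named after its values were seen, from 674.5 ± 186 to 1069 ± 107 (0.69, adjusted p = 0.0116). KLF5 was under the fold threshold without si-CTRL replicate 2 (0.56) and with equal total scaling (0.56). ZEB2 and ZEB1, repressors of epithelial genes, fell by 1.603 and 0.82 on the log2 scale (adjusted p = 0.000173 and 0.000340).

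AP-1 members were among those that fell. FOSL1, the most abundant regulator of the list by normalized count, went from 59386, 39866 and 43691 to 22840, 21684 and 21427 (log2 fold change -1.09, SE 0.13, adjusted p = 0.000279), and JUNB from 1394 ± 32.9 to 691.2 ± 188 (SD, n = 3; -1.05, adjusted p = 0.00167). GLI2, an effector of Hedgehog signalling that is known to drive KRT17, fell from 930.3 ± 166 to 546.0 ± 78.2 (SD, n = 3; -0.76, adjusted p = 0.00317). The remaining 2 that fell, JUN (-0.67) and SNAI2 (-0.71), are named after their values were seen. JUN was under the fold threshold without si-NEK2 replicate 3 (-0.49), and SNAI2 without si-CTRL replicate 1 (-0.51). GRHL2, a grainyhead factor that activates epithelial genes, and OVOL2 were listed at 0 in all libraries.

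**Figure D5:**
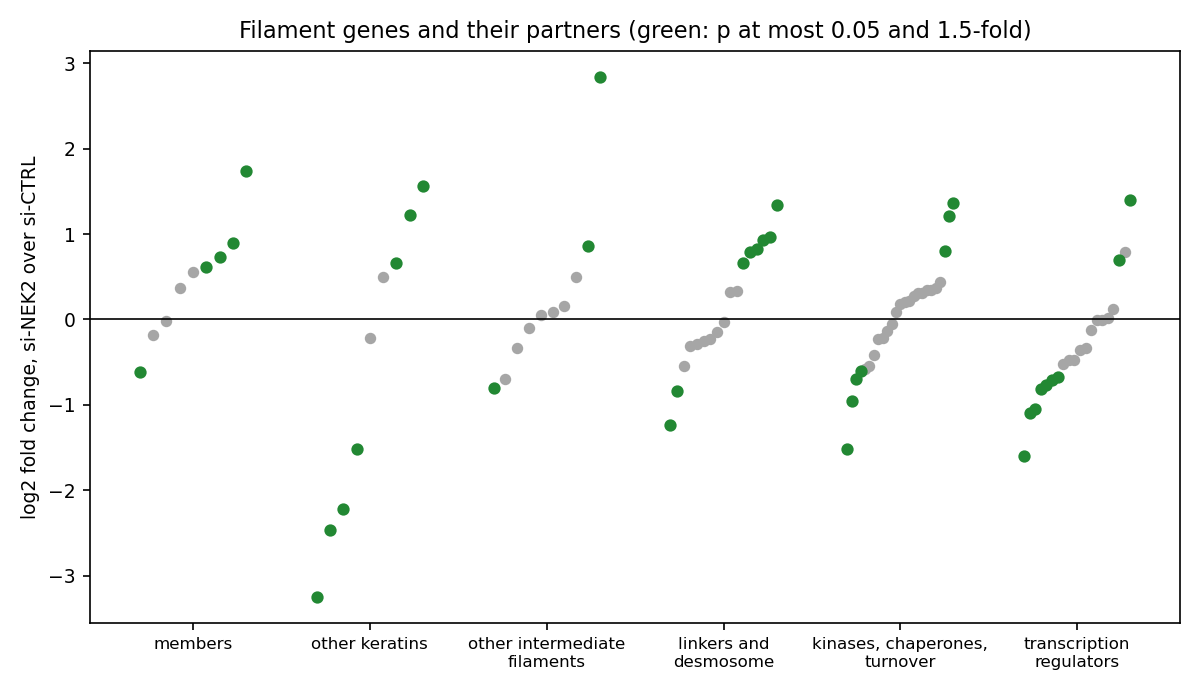
Log2 fold change in si-NEK2 over si-CTRL of every tested gene of each list, 1 point per gene, ordered from low to high within a list, green where both thresholds were met and grey otherwise. The highest point is DES and the lowest is KRT79, which had 1 or 2 reads per si-NEK2 library; 7 of the 9 green points among the transcription regulators lie below 0.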

How the data were processed

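PolyA-selected RNA from MDA-MB-231 was sequenced in 3 si-CTRL and 3 si-NEK2 libraries, grouped by the sample labels. The authors deposited a gene signal, that is reads per gene over a library's DESeq2 size factor (called normalized counts here), with FAST DB annotation and hg19 coordinates and without pooling. The submitters' processing notes list STAR 2.4.0, SAMtools, Picard, FastQC and DESeq2, and how strand was handled in counting is not given in the sources used here. Values were whole multiples of 1 read for 100% of genes (tolerance 0.01 reads), worth 0.818 to 1.25 normalized counts, so that reads were recovered. Confidence intervals are from limma and rest on the spread between libraries, whereas limits of zero counts cover counting error only.

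The 18717 genes whose mean reached 10 normalized counts were tested with limma 3.58.1 (lmFit, eBayes with trend) in R 4.3.3 on log2(value + 1), a scale that understates changes of low genes. Regulated genes had p at or below 0.05 and a change of 1.5-fold or more, and adjusted p-values are Benjamini-Hochberg over all genes tested. The members and lists were chosen with earlier results of these data known. Named are the 9 members, NEK2, the regulated genes of each list with a mean of at least 50 (at most 6, by size of change) and its most abundant gene, the 3 genes most alike to VIM, KRT8, KRT18 and KRT81, and antisense RNAs with a mean of at least 50. Some of the items this rule names are not reported here. Lengths per kb are those of the shortest principal coding transcript of GENCODE v29. The limma, edgeR and DESeq2 fits were tested on counts simulated with a fixed dispersion, and the outcome is not reported here. Alternatives changed the pseudocount (0.1, 5), the filter (none, mean of 50), the scaling (equal totals, upper quartiles, quantiles), the eBayes trend, the thresholds (adjusted p, fold of 2) and the block (replicate number), left out each library, or used recovered reads with DESeq2 1.42.0 or with edgeR 4.0.16 (TMM, quasi-likelihood). For the ratios, the longest transcript and the KRT19 row were added after the data were seen.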

Additional observations from a re-analysis of the deposited data

How the results depend on the processing

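Of the 9 filament genes, KRT17, KRT80 and KRT81 met both thresholds under all 17 alternatives, and VIM and KRT8 kept their direction and stayed under the fold threshold. VIM, with a limma p of 0.0522 that is not adjusted, was at or below the p threshold with edgeR, DESeq2, a pseudocount of 0.1, the 3 other scalings and without si-CTRL replicate 3. KRT7, KRT15, KRT18 and the KRT19 row changed side or sign under the alternatives given beside their values. The count of regulated genes among the 9 was 5, 4 with equal total, upper quartile or quantile scaling, between 3 and 6 with 1 library left out, and 1 with a fold change of at least 2, which removes genes by construction. At that fold the count was 1 of the other filament genes, 2 of the linkers, 3 of the kinase, chaperone and turnover genes and 4 of the transcription regulators. Raising the filter to a mean of 50, which tests fewer genes, left 2 other keratins called by limma against 7, and 0 other filament genes, since the 3 called ones have means under 50. With 1 library left out the other keratins gave 6 to 8 calls, the other filament genes 2 to 4, the linkers 7 to 8, the kinase, chaperone and turnover genes 6 to 8 and the transcription regulators 8 to 10. Equal total scaling moved the median log2 fold change of all genes from 0.01 to -0.11. KRT18 turned from -0.02 to 0.000963 without si-CTRL replicate 2 and 0.0236 without si-NEK2 replicate 3, and LMNA to -0.0371 with equal total and -0.0444 with quantile scaling; the cause was not tested. With 1 library left out KRT18 ranged from -0.0476 to 0.0236.

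Same-numbered libraries of the groups deviated from their group means with correlations of -0.09, 0.05 and -0.15. Those of different number gave -0.12 to 0.18. With 3 libraries in a group, these values cannot tell whether same-numbered libraries share a culture or batch. With the replicate number as a block 5 of the 9 genes were called, and 4084 genes in all against 4213 without it. The adjusted p of KRT7 was then 0.0509 and its fold change was the same. The difference between groups in the KRT8 over KRT18 ratio was 0.39 with other pseudocounts, other transcript lengths or none. These settings could not test it, since a fixed length cancels between groups and the pseudocounts are small beside the counts. It ranged from 0.36 to 0.43 when single libraries were left out. With every library kept, the vimentin share was lower under the alternatives, with differences of -4.84 to -3.96 percentage points. At the depth of these libraries KRT17 rested on 19 to 40 reads per si-CTRL library.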
